A study of Mus musculus with 6 samples.

Results

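Calcium channels, calcium pumps, exchangers, store sensors and calmodulin-dependent kinase II genes were examined after knockdown of the histone deacetylase gene Hdac4 in MC3T3-E1, a line of mouse bone-forming precursor cells. The genes were chosen by symbol, as the voltage-gated calcium channel genes (Cacna1a to Cacna1i, Cacna1s, Cacna2d1 to Cacna2d4 and Cacnb1 to Cacnb4), the store release channels (Itpr1 to Itpr3, Ryr2 and Ryr3), the pumps and exchangers (Atp2a1 to Atp2a3, Atp2b1 to Atp2b4 and Slc8a1 to Slc8a3), the store-operated entry genes (Stim1, Stim2 and Orai1 to Orai3) and the kinase genes Camk2a, Camk2b, Camk2d and Camk2g. They are 42 of the 53801 genes in the count tables, and 27 of the 42 had enough counts to be tested. The Control group was 3 libraries of cells carrying a lentivirus with a scrambled non-silencing sequence. The Hdac4-knockdown group was 3 libraries of cells carrying an Hdac4-shRNA lentivirus, which the study describes as Hdac4-shRNA3. Selection was with puromycin at 5 μg/mL over 7 days in both groups, so all cells carry the vector with its ZsGreen1 and puromycin resistance genes, and 1 hairpin stands for the knockdown.

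Calcium is held far lower in the cytosol than outside the cell or in the endoplasmic reticulum, so that opening a channel is enough to raise it. Voltage-gated channels consist of a pore, encoded by a Cacna1 gene, with alpha2delta and beta subunits that carry it to the membrane and tune its gating. IP3 and ryanodine receptors release calcium from the store, SERCA pumps (Atp2a genes) refill it, STIM proteins sense its emptying and open Orai channels in the plasma membrane, and PMCA pumps (Atp2b genes) and sodium/calcium exchangers (Slc8a genes) drive calcium out. In osteoblasts, L-type and T-type channels are known to carry calcium entry, and calcium-bound calmodulin acts through calcineurin and CaM kinase II.

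Between 29096544 and 31651826 reads were counted on genes in each library. Hdac4 was counted 1243, 1204 and 1136 times in the Control libraries and 950, 927 and 887 times in the Hdac4-knockdown libraries, 73.6% of the Control level after normalization (log2 fold change -0.44, SE 0.0579, edgeR adjusted p = 3.05e-07). Its counts are uncertain where 3536 of its 15813 exon bases overlap Gm26720 on the opposite strand, since the libraries do not keep strand. Of the osteoblast markers, Runx2 stood at 65.3 to 74.6 CPM (counts scaled for library size and composition) in Control and 73 to 82.9 CPM in Hdac4-knockdown, whereas Alpl had 3 counts or fewer in every library and Sp7 stood at 0.0702 to 0.234 CPM in Control and 2.26 to 3.48 CPM in Hdac4-knockdown. Of 5 tested osteoblast markers 4 were higher (38% of all genes), but among them Sp7 had enough counts to be tested only through Hdac4-knockdown. The summed level of all 8 osteoblast markers was 4770 to 4780 CPM in Control and 21400 to 22300 CPM in Hdac4-knockdown. In Hdac4-knockdown this sum was mostly Col1a1 (10800 to 11400 CPM, from 322 to 351 in Control) and Col1a2 (8440 to 8750 CPM, from 1190 to 1230). Spp1 fell, from 3130 to 3190 CPM down to 2010 to 2080 CPM, and Bglap and Ibsp stayed at or below 0.372 CPM in every library. The part of these markers in the calcium gene values was not tested. A list of 8 skeletal muscle markers was present as well, with a summed level of 201 to 213 CPM in Control and 38.3 to 44.2 CPM in Hdac4-knockdown. In Hdac4-knockdown 7 of its 7 tested genes were lower (37.1% of all genes).

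Of the 27 tested genes, 21 passed the thresholds of the study (adjusted p below 0.05 and a log2 fold change beyond 0.05), against 75.1% of all 14531 genes tested. In Hdac4-knockdown cells 8 were higher (38% of all genes) and 13 were lower (37.1% of all genes). The share that changed was thus near that of all genes, and the families differed in which members moved, by how much and from what level. The median log2 fold change of the 27 genes was -0.14, against 0.01 for all genes, and the median size was 0.61, against 0.46. Past 2-fold, 3 genes were higher (16.5% of all genes) and 5 were lower (10.6% of all genes), and the 3 higher genes all encode channel pores. The Control and Hdac4-knockdown libraries did not overlap for 21 of the 27 (76.8% of all genes). The smallest p of a two-sided exact permutation test in this design is 0.1, which each of these 21 genes reached, so calls rest on the edgeR fit across all genes.

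**Figure D1:**
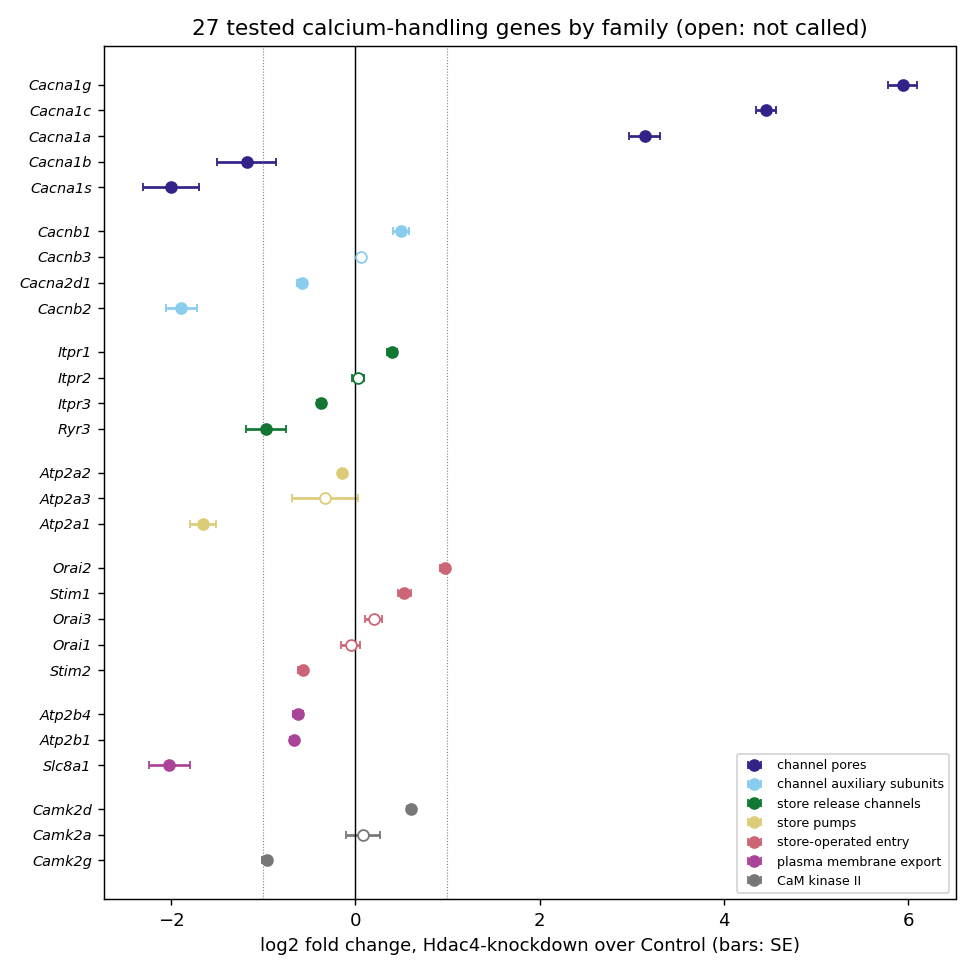
Log2 fold change (horizontal axis) of each of the 27 tested genes (vertical axis), grouped by family, with the SE as bars and open circles for the 6 genes that were not called. Cacna1g, Cacna1c and Cacna1a stand apart on the right at 5.94, 4.46 and 3.14, whereas the other genes lie between -2.02 and 0.97.

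Of the 5 channel pores tested, T-type Cacna1g, L-type Cacna1c and P/Q-type Cacna1a were strongly higher in Hdac4-knockdown cells, and Cacna1s and Cacna1b were lower. Cacna1g (ENSMUSG00000020866; GRCm38 chromosome 11, 94408391 to 94474198, minus strand), which encodes a low-voltage-activated T-type pore, was counted 10, 13 and 11 times in the Control libraries and 778, 781 and 652 times in the Hdac4-knockdown libraries. It was close to absent in each Control library and clearly present in each Hdac4-knockdown library. Its level rose from 0.383 ± 0.0536 to 23.7 ± 1.81 CPM (SD, n = 3), or 61.9-fold (log2 fold change 5.94, SE 0.154, edgeR adjusted p = 1.37e-20), and 0.853% of all genes tested had a larger change. In bulk RNA, fewer cells that express a gene and less of its RNA per cell cannot be told apart, here or for the genes below.

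Cacna1c (ENSMUSG00000051331; chromosome 6, 118587240 to 119196418, minus strand), the pore of the L-type channel of heart, smooth muscle and bone cells, was counted 45, 40 and 39 times in Control and 945, 1018 and 902 times in Hdac4-knockdown. The replicates of each group were close together and the groups lay far apart. The level rose 22-fold, from 1.39 ± 0.0713 to 30.7 ± 0.823 CPM (SD, n = 3; log2 fold change 4.46, SE 0.107, edgeR adjusted p = 3.01e-21). Cacna1a (ENSMUSG00000034656; chromosome 8, 84388440 to 84640246, plus strand), the P/Q-type pore best known from nerve terminals, was counted 28, 45 and 29 times in Control and 285, 345 and 316 times in Hdac4-knockdown. This was an 8.85-fold rise, from 1.15 ± 0.314 to 10.1 ± 0.81 CPM (SD, n = 3; log2 fold change 3.14, SE 0.165, edgeR adjusted p = 1.82e-14). Of its 11418 exon bases, 435 overlap the antisense gene Gm16183.

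The remaining tested pores fell. Cacna1s (ENSMUSG00000026407; chromosome 1, 136052750 to 136119822, plus strand), the L-type pore of skeletal muscle that acts as its voltage sensor, was counted 68, 62 and 43 times in Control and 17, 11 and 17 times in Hdac4-knockdown. At 25.1% of the Control level (log2 fold change -2, SE 0.302, edgeR adjusted p = 2.54e-06), every Hdac4-knockdown library was below every Control library. Of the 6550 exon bases of Cacna1s, 1309 overlap Gm37759 on the opposite strand, so reads there may have been left out as ambiguous. Cacna1b (ENSMUSG00000004113; chromosome 2, 24603887 to 24763152, minus strand), the N-type pore of neurons, was counted 49, 39 and 36 times in Control and 27, 18 and 12 times in Hdac4-knockdown. The groups did not overlap and the log2 fold change was -1.18 (SE 0.32, edgeR adjusted p = 0.00199), but it varied with single libraries, from -1.52 without Hdac4-knockdown replicate 1 to -0.95 without Hdac4-knockdown replicate 3.

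The sum of all 10 pore genes, on a scale of CPM per kilobase of exon that allows genes to be compared, was 0.549 to 0.685 in the Control libraries and 4.61 to 4.96 in the Hdac4-knockdown libraries. In Control, Cacna1s gave 46% of this sum on average, Cacna1b 22%, Cacna1a 15.7%, Cacna1c 10.4% and Cacna1g 5.97%. In Hdac4-knockdown, Cacna1g gave 48.3%, Cacna1c 30% and Cacna1a 18.4%, whereas Cacna1s and Cacna1b gave 1.54% and 1.26%. Cacna1g went from the lowest of the 5 tested pores to the highest, and Cacna1s from the highest to the fourth. Even Cacna1g in Hdac4-knockdown, at 2.34 ± 0.178 CPM per kilobase (SD, n = 3), was far below the main store genes described below. The other pore genes were barely detected. Cacna1d, Cacna1e, Cacna1f and Cacna1i had no count in any Control library and at most 8 in any Hdac4-knockdown library. Cacna1h, another T-type pore, had no count in any of the 6 libraries, where a count of 0 allows up to 3 counts per library.

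**Figure D2:**
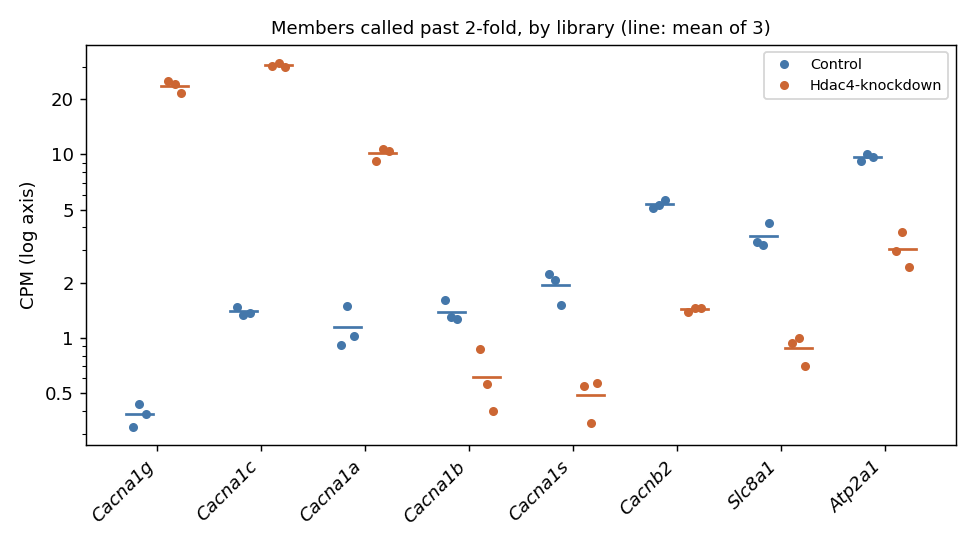
Normalized counts (CPM, log axis) in each library for the 8 genes called past 2-fold, with Control in blue, Hdac4-knockdown in orange, points for single libraries and lines for the mean of 3. The 3 genes on the left rise from at most 1.5 CPM in Control to at least 9.21 CPM in Hdac4-knockdown, and the 5 on the right are lower in every Hdac4-knockdown library than in any Control library.

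The start regions of a pore gene that rose and of muscle genes that fell are printed for comparison. RefSeq promoter windows of 300 bases (250 before the gene start and 50 after it, GRCm38.p6) were found for 32 of the 42 genes, Cacna1g and Cacna1a not among them. Capitals mark CAGCTG, an E-box sequence that reads the same on both strands and is known as a binding sequence of myogenic transcription factors, which was chosen after the values were seen.
Cacna1s (chr1:136052561-136052860, plus strand): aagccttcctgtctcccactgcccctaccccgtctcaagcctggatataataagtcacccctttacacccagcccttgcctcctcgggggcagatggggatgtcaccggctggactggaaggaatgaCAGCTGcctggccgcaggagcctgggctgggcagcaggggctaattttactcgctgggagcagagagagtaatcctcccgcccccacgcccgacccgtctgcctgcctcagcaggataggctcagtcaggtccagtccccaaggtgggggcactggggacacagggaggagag
Atp2a1 (chr7:126463024-126463323, minus strand): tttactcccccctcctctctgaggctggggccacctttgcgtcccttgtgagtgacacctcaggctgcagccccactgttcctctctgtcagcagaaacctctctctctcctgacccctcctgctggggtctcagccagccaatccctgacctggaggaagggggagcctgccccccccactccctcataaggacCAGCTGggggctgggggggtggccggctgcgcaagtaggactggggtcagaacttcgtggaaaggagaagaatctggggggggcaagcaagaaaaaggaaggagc
Cacna1c, the window farthest upstream (chr6:119196360-119196659, minus strand): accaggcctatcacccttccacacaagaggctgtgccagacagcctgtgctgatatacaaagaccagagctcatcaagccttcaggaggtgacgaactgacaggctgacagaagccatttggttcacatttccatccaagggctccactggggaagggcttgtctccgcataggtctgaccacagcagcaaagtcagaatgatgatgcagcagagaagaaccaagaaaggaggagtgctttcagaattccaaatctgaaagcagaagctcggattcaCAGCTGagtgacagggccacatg

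In these windows CAGCTG started at position -123 in Cacna1s, -55 in Atp2a1 and 28 in Cacna1c, counted from the gene start. It was present in 11 of the 43 windows of the calcium genes (25.6%), against 16.3% of 32851 windows of all genes. Of the genes called lower past 2-fold, Cacna1b and both windows of Cacnb2 also held it and Slc8a1 did not, and the other 2 windows of Cacna1c held none. The remaining holders were not called lower, namely Orai1, which was not called, and Cacna1d, Cacna2d3, Cacnb4 and Slc8a3, which were not tested. The MEF2 consensus, the binding sequence of the MEF2 factors that class IIa deacetylases bind, was in 0 of the 43 windows and in 3.19% of all windows. The SRF-binding CArG box was likewise in 0 of the 43 and in 1.63% of all windows. All 3 patterns read the same on both strands, so each search covers both. A match describes letters in a short window and not a bound site.

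Among the subunits that accompany the pores, Cacnb2 fell strongly and the others shifted by less than 2-fold. Cacnb2 (chromosome 2, 14603088 to 14987908), a beta subunit of the cardiac L-type channel, was counted 156, 159 and 161 times in Control and 43, 47 and 44 times in Hdac4-knockdown, with little spread in either group. It stood at 26.8% of the Control level (log2 fold change -1.89, SE 0.168, edgeR adjusted p = 4.17e-10), and 968 of its 13228 exon bases overlap antisense genes. Cacna2d1, the alpha2delta subunit to which gabapentin binds, fell from 151 ± 5.03 to 101 ± 5.89 CPM (SD, n = 3; log2 fold change -0.58, edgeR adjusted p = 8.69e-11). Cacnb1, the beta subunit of the skeletal muscle channel, rose from 12.7 ± 0.712 to 17.9 ± 1.61 CPM (log2 fold change 0.50, edgeR adjusted p = 1.80e-05). The beta subunit gene with the highest level was Cacnb3, counted 2456, 2622 and 2288 times in Control and 2607, 2855 and 2598 times in Hdac4-knockdown. These values overlapped after normalization, and its log2 fold change of 0.06 (SE 0.0485, edgeR adjusted p = 0.252) was not called, although it passed with library size alone (0.12, adjusted p = 0.0288) and with upper quartile normalization (0.15, adjusted p = 0.0071). Cacnb3 gave 85.7 to 87.7% of the summed beta subunit level per kilobase in Control and 83.2 to 85% in Hdac4-knockdown.

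The main auxiliary subunits were expressed far above the pores they serve. Per kilobase of exon, the Control level of Cacnb3 was 20.6 ± 1.05 and that of Cacna2d1 was 12.1 ± 0.405 CPM (SD, n = 3), against 0.639 ± 0.0779 for all pore genes together. With more pore RNA and less Cacna2d1 RNA in Hdac4-knockdown, these values became 21.5 ± 0.541, 8.1 ± 0.475 and 4.83 ± 0.192. Cacna2d2, Cacna2d3, Cacna2d4 and Cacnb4 had at most 9 counts in any library and were not tested.

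Of the store release channels, Itpr3 had by far the highest RNA level, and the IP3 receptor genes moved in different directions. Itpr3 (chromosome 17, 27057304 to 27122223) was counted 11565, 11906 and 11166 times in Control and 9178, 10295 and 8659 times in Hdac4-knockdown. It fell in every Hdac4-knockdown library, to 77.4% of Control (389 ± 9.87 to 301 ± 16.4 CPM, SD, n = 3; log2 fold change -0.37, SE 0.0421, edgeR adjusted p = 3.08e-08). Itpr1 rose to 132% of Control, from 33.3 ± 1.12 to 43.8 ± 1.03 CPM (log2 fold change 0.40, SE 0.0566, edgeR adjusted p = 1.07e-06). Itpr2 was counted 1293, 1307 and 1365 times in Control and 1541, 1465 and 1256 times in Hdac4-knockdown, so that the groups overlapped. Its log2 fold change of 0.03 (SE 0.0649, edgeR adjusted p = 0.645) was not called and turned slightly negative when single libraries were left out. Itpr3 made up 89.5 to 90.3% of IP3 receptor level per kilobase in Control and 85.2 to 86.7% in Hdac4-knockdown.

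The ryanodine receptor genes Ryr3 and Ryr2, whose products release calcium in muscle and neurons, had low counts, and Ryr1, which the symbol rule does not include, is described with the store proteins below. Ryr3 (chromosome 2, 112631355 to 113217096) was counted 118, 72 and 91 times in Control and 52, 60 and 38 times in Hdac4-knockdown, the groups lying apart despite the spread within Control. At a log2 fold change of -0.97 (SE 0.216, edgeR adjusted p = 0.000302) it was at the 2-fold limit, which it passed without Control replicate 2 (-1.15) or Hdac4-knockdown replicate 2 (-1.09). Its exons share 916 bases with the antisense gene Aven. Ryr2, the cardiac form, had at most 1 count in Control and 2 to 8 in Hdac4-knockdown.

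Of the SERCA genes, which refill the store, Atp2a2, the form of most tissues and of heart, gave nearly all of the RNA. It was counted 14345, 14038 and 13794 times in Control and 13151, 14163 and 12744 times in Hdac4-knockdown. After normalization it was slightly lower in each Hdac4-knockdown library, 474 ± 8.5 against 429 ± 8.86 CPM (SD, n = 3; log2 fold change -0.14, SE 0.0371, edgeR adjusted p = 0.00137), a call that was lost with upper quartile normalization (-0.05, adjusted p = 0.196). At 78 ± 1.4 CPM per kilobase in Control it had the highest level per kilobase of the 42 genes and gave 96.1 to 96.6% of SERCA level, rising to 98.3 to 98.7% in Hdac4-knockdown. Of its transcript windows of 50 bases, 3.61% also occur in Gm30970, so a small part of its reads may have been left out as not uniquely aligned.

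The skeletal muscle SERCA gene changed much more. Atp2a1 (ENSMUSG00000030730; chromosome 7, 126445858 to 126463108, minus strand), whose pump refills the store in fast muscle fibres and whose promoter window is printed above, was counted 280, 303 and 277 times in Control and 92, 122 and 73 times in Hdac4-knockdown. It fell from 9.67 ± 0.482 to 3.06 ± 0.685 CPM (SD, n = 3; log2 fold change -1.65, SE 0.14, edgeR adjusted p = 1.78e-10). Its exons overlap Rabep2 on the opposite strand over 763 of 3477 bases, and its counts are uncertain there. Atp2a3, the SERCA gene known from blood cells and epithelia, was counted 17, 35 and 39 times in Control and 18, 22 and 36 times in Hdac4-knockdown, with overlapping groups and no call (log2 fold change -0.33, SE 0.361, edgeR adjusted p = 0.417).

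In store-operated entry, Stim1 and Orai2 rose, Stim2 fell, and Orai1 and Orai3 did not pass the test. Orai2 (chromosome 5, 136147459 to 136170713), an Orai channel subunit, was counted 1027, 1020 and 967 times in Control and 2054, 2189 and 1943 times in Hdac4-knockdown. It was 1.96-fold higher, at 33.9 ± 0.239 and 66.3 ± 1.69 CPM (SD, n = 3; log2 fold change 0.97, SE 0.0522, edgeR adjusted p = 2.88e-14). Orai1, the subunit best known from the classical store-operated current, was counted 403, 488 and 435 times in Control and 384, 538 and 422 times in Hdac4-knockdown. Its groups overlapped and its log2 fold change of -0.05 (SE 0.104, edgeR adjusted p = 0.666) changed sign with library size alone and upper quartile normalization. Orai3 was counted 450, 426 and 453 times in Control and 452, 624 and 528 times in Hdac4-knockdown, and its log2 fold change of 0.20 (SE 0.0938, edgeR adjusted p = 0.0569) lay close to the threshold and passed it under 5 alternatives, the replicate block among them (0.20, adjusted p = 0.0332).

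Orai2 took a larger share of the summed Orai level in Hdac4-knockdown. Per kilobase of merged exons, Orai3, Orai1 and Orai2 stood at 6.98 ± 0.398, 6.5 ± 0.691 and 5.57 ± 0.0393 CPM in Control (SD, n = 3), the ranges of Orai3 and Orai1 overlapping, and Orai2 took 28.4 to 30.5% of their sum. In Hdac4-knockdown Orai2 led with 10.9 ± 0.278, followed by Orai3 with 8.02 ± 1.12 and Orai1 with 6.26 ± 0.943, and Orai2 took 40.7 to 47.2% of the sum. With the length of the longest transcript, Orai2 led in Control as well, at 8.49 CPM per kilobase against 7.96 for Orai1 and 6.98 for Orai3, and at 16.6 against 7.67 and 8.02 in Hdac4-knockdown, so the order in Control depends on which exons are counted.

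The store sensors moved toward each other. Stim2 (chromosome 5, 53998499 to 54121057), which responds to small losses of store calcium, was counted 2515, 2344 and 2310 times in Control and 1673, 1714 and 1668 times in Hdac4-knockdown. It fell to 67.3% of Control (log2 fold change -0.57, SE 0.0483, edgeR adjusted p = 1.67e-10). Stim1, the sensor that responds when the store is more fully emptied, rose from 26 ± 2.88 to 37.5 ± 0.307 CPM (SD, n = 3; log2 fold change 0.53, SE 0.0697, edgeR adjusted p = 3.21e-07). Stim2 remained the more abundant form per kilobase, with 84.5 to 87.7% of the sum in Control and 74.3 to 74.9% in Hdac4-knockdown.

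**Figure D3:**
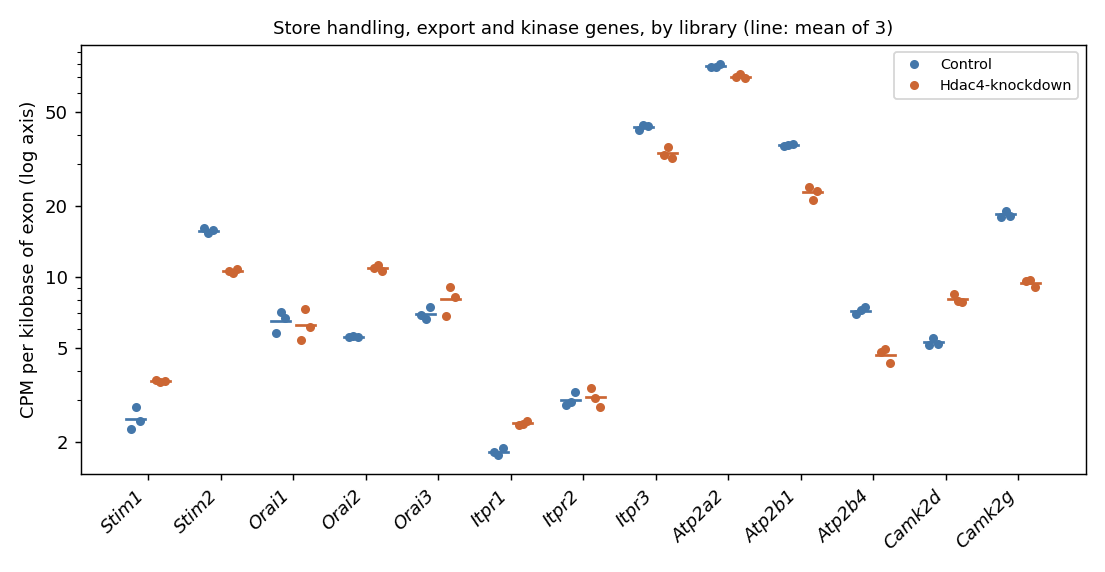
Level per kilobase of merged exons (CPM per kilobase, log axis) in each library for 13 store, export and kinase genes, with Control in blue, Hdac4-knockdown in orange, points for single libraries and lines for the mean of 3. Atp2a2, Itpr3 and Atp2b1 are the highest in both groups, Orai2 moves up relative to Orai1 and Orai3, from below them on this scale though not with the length of the longest transcript, and Camk2d and Camk2g draw together.

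All 3 tested genes for export across the plasma membrane were lower in Hdac4-knockdown cells (37.1% of all genes), a small number to compare with that share. Atp2b1 (ENSMUSG00000019943; chromosome 10, 98914406 to 99026143), the PMCA pump found in nearly all tissues, was counted 16701, 16392 and 15809 times in Control and 11366, 10406 and 10590 times in Hdac4-knockdown. It fell from 550 ± 4.39 to 347 ± 22.6 CPM (SD, n = 3; log2 fold change -0.66, SE 0.0427, edgeR adjusted p = 9.80e-13). Atp2b4, another widely expressed PMCA pump, fell to 65% of Control, beside 63.2% for Atp2b1 (log2 fold change -0.62, SE 0.0533, edgeR adjusted p = 2.17e-10). With both lower, the summed PMCA level per kilobase was 42.9 to 43.9 CPM in Control and 26.2 to 29 CPM in Hdac4-knockdown, and Atp2b1 gave 83.1 to 83.8% of it in Control and 81.1 to 84.3% in Hdac4-knockdown.

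Slc8a1 (ENSMUSG00000054640; chromosome 17, 81373105 to 81738377, minus strand), the sodium/calcium exchanger of heart that many other tissues also use, was counted 102, 96 and 120 times in Control and 29, 32 and 21 times in Hdac4-knockdown. This was 24.4% of the Control level (3.59 ± 0.545 and 0.876 ± 0.157 CPM, SD, n = 3; log2 fold change -2.02, SE 0.222, edgeR adjusted p = 1.73e-08), the strongest fall of the 27 tested genes. Its relative Slc8a2 had 1, 0 and 0 counts in Control and 15, 9 and 12 in Hdac4-knockdown, too few to pass the filter. Slc8a3, Atp2b2 and Atp2b3 had at most 15 counts in any library. Exchanger RNA was low beside that of the PMCA pumps, Slc8a1 giving 0.393 to 0.507% of all export level per kilobase in Control.

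The CaM kinase II genes, which encode subunits of a kinase that calcium and calmodulin switch on, moved in opposite directions. Camk2g (chromosome 14, 20734875 to 20794088) was counted 3511, 3644 and 3317 times in Control and 1902, 1994 and 1737 times in Hdac4-knockdown, a fall to 51.3% of Control (log2 fold change -0.96, SE 0.0477, edgeR adjusted p = 5.30e-15). Camk2d (chromosome 3, 126596302 to 126846326), the main form in heart, was counted 3537, 3714 and 3325 times in Control and 5903, 5740 and 5253 times in Hdac4-knockdown, a 1.52-fold rise (log2 fold change 0.61, SE 0.0455, edgeR adjusted p = 1.68e-11). From nearly equal CPM in Control (118 ± 3.6 and 119 ± 4.57, SD, n = 3), they came to 60.4 ± 2.3 for Camk2g and 181 ± 8.55 for Camk2d. Per kilobase of merged exons Camk2g stayed the higher of the pair in Hdac4-knockdown, at 9.43 against 8.05 CPM. With the length of the longest transcript in place of merged exons Camk2d was higher, at 32.8 against 16.3 CPM per kilobase, so the order depends on which exons are counted. Camk2a, a form of neurons, was counted 75, 76 and 60 times in Control and 85, 70 and 79 times in Hdac4-knockdown and was not called (log2 fold change 0.08, SE 0.189, edgeR adjusted p = 0.695). Camk2b had at most 4 counts in Control and 6 to 12 in Hdac4-knockdown.

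The 15 genes that were not tested had few counts, but these lay mostly in Hdac4-knockdown. Their summed counts were 11, 4 and 11 in the Control libraries and 67, 61 and 49 in the Hdac4-knockdown libraries. Over the whole series, 19373 to 19797 genes had counts in each Control library and 22148 to 22640 in each Hdac4-knockdown library. A lean to Hdac4-knockdown at low counts was thus not particular to the calcium genes. Cacna1i and Slc8a2 had over 3 counts in every Hdac4-knockdown library and 3 or fewer in every Control library, and 0 of the 42 genes showed the opposite. The share of all genes with either pattern was not counted. When no filter was applied, Cacna1i, Slc8a2, Cacna2d4, Camk2b and Slc8a3 were called higher, the first pair also by DESeq2, at counts too low for a reliable fold.

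The wider calcium pathway was described with 6 lists of 102 genes, of which 78 were tested, 36 higher and 30 lower, where 38% of all genes were higher and 37.1% lower. Of 18 tested genes in the list of other calcium-permeable channels, 13 were higher (38% of all genes) and 2 lower (37.1% of all genes). Their median log2 fold change was 1.05, against 0.01 for all genes. The 13 include Trpm4 (0.15, edgeR adjusted p = 0.0494), whose channel is opened by calcium but passes monovalent ions. They also include Trpv3, which had enough counts to be tested only through Hdac4-knockdown (0.0327 to 0.14 CPM in Control, 0.356 to 0.403 in Hdac4-knockdown). The higher call of Trpv3 therefore adds no support to a lean. Trpm3 and Trpv6 were also low in Control, at 0.229 to 0.561 and 0.334 to 0.667 CPM. The list ranged from -2.50 for Trpc1 to 4.08 for Trpv2, which rose from 1.3 ± 0.582 to 22.1 ± 1.3 CPM (SD, n = 3; edgeR adjusted p = 6.54e-15). Of 12 genes of mitochondrial calcium transport, 9 were lower (37.1% of all genes) and 1 higher (38% of all genes), with a median of -0.37. They ranged from -0.69 for the outer membrane channel Vdac1 to 0.51 for the sodium/calcium exchanger Slc8b1, which carries calcium out of mitochondria. Not all of them serve uptake, since the lower genes include Mcub (-0.44), a subunit that damps it. These 2 lists leaned to opposite sides, whereas the other lists were mixed.

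Of 8 phospholipase C genes, whose enzymes make IP3, 4 were higher (38% of all genes) and 3 lower (37.1% of all genes). They ranged from -2.90 for Plcg2 to 5.12 for Plce1, which rose from 0.406 ± 0.137 to 14.2 ± 1.23 CPM (SD, n = 3; edgeR adjusted p = 8.31e-18). Of 19 calmodulin, calcineurin and NFAT genes, 9 were higher (38% of all genes) and 6 lower (37.1% of all genes), with a median of 0.04. Nfatc4, an NFAT transcription factor that calcineurin activates, rose from 2.43 ± 0.187 to 40.8 ± 1.78 CPM (log2 fold change 4.06, edgeR adjusted p = 1.03e-21), and Rcan2, an inhibitor of calcineurin, fell from 9.48 ± 0.863 to 0.6 ± 0.0741 CPM (-3.97, edgeR adjusted p = 6.86e-16). Of 19 genes for proteins of the store lumen and membrane, 8 were higher (38% of all genes) and 9 lower (37.1% of all genes). They ranged from -2.20 for Ryr1 to 2.90 for Rcn3, a calcium-binding protein of the secretory pathway. Only Cacng1 (-1.83) and Cacng7 (3.86) of the 8 gamma subunit genes were tested.

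**Figure D4:**
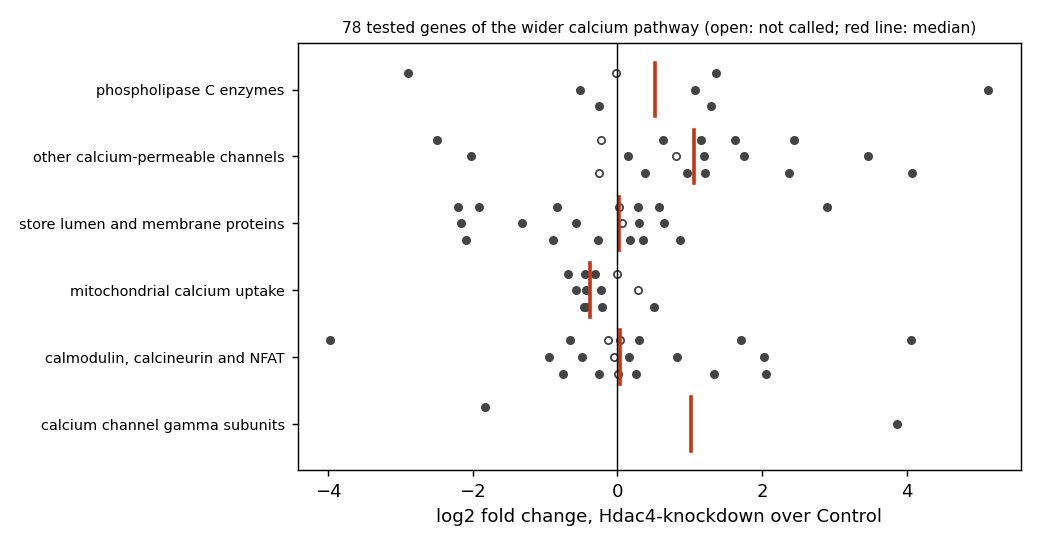
Log2 fold change (horizontal axis) of the 78 tested genes in 6 lists of the wider calcium pathway (vertical axis), with open circles for genes not called and a red line at each median. The list of calcium-permeable channels lies mostly to the right of 0, the list labelled mitochondrial calcium uptake in a narrow band mostly to its left, and the other lists spread to both sides.

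Genes of striated muscle calcium handling moved in both directions, and those named here were chosen after their values were seen. Cacna1s, Atp2a1, Ryr1, the ryanodine receptor to which Cacna1s couples, and Cacng1, the gamma subunit of the same channel, were each lower in all 3 Hdac4-knockdown libraries. Cacnb1 of the same channel (0.50), the cardiac pore gene Cacna1c (4.46) and Camk2d (0.61) were higher, as given above. Cacnb2 of the cardiac channel (-1.89) and the heart exchanger gene Slc8a1 (-2.02) were lower, so genes known from heart moved both ways. Ryr1 stood at 13.3 to 14.3 CPM in Control and 2.69 to 3.33 CPM in Hdac4-knockdown (log2 fold change -2.20, SE 0.117, edgeR adjusted p = 2.19e-14), and Cacng1 at 44.1 to 48.3 and 11.6 to 13.9 CPM. Of the 19 tested genes of the store list, the 5 lower past 2-fold (10.6% of all genes) were Ryr1, Casq1, Casq2, Hrc and Jph1, which are known from the muscle store. Of these, Casq1 had enough counts to be tested only through Control (0.351 to 0.401 CPM, against 0.031 to 0.226 in Hdac4-knockdown). Its lower call therefore adds no support, and Hrc was also low in Hdac4-knockdown, at 0.279 to 0.598 CPM. Jph2, a junction gene of heart muscle in the same list, rose from 57.2 ± 1.93 to 85.3 ± 5.18 CPM (SD, n = 3; log2 fold change 0.58, edgeR adjusted p = 5.98e-10). The skeletal muscle marker list was lower too, from 201 to 213 down to 38.3 to 44.2 CPM in sum, Myod1 going from 64.8 to 71.9 CPM to 8.01 to 9.57 CPM. For the heart muscle list the sum went from 75.2 to 82.5 down to 35.3 to 35.7 CPM, with 4 of 4 tested genes lower (37.1% of all genes) and Myh6 at 3 counts or fewer in every library. The part of either list in the calcium gene values was not tested. Neuron markers fell in sum as well, from 546 to 566 down to 132 to 139 CPM, with Rbfox3, Snap25 and Elavl3 at 3 counts or fewer in every library. Nefl gave much of this fall, going from 240 to 258 CPM down to at most 0.0646 CPM. Of 5 tested neuron markers 4 were lower (37.1% of all genes) and 1, Syt1, was higher (38% of all genes). Syt1 had enough counts to be tested only through Hdac4-knockdown (1.33 to 1.89 CPM, against 0 to 0.14 in Control). Of the neuronal pore genes, Cacna1a rose and Cacna1b fell (-1.18).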

How the data were processed

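RNA was sequenced in 3 Control and 3 Hdac4-knockdown libraries of MC3T3-E1 cells, from poly-A selected RNA with a kit that does not keep strand. The authors deposited a table of reads per Ensembl gene for every library, as raw counts that were not normalized. The submitters' processing notes name FastQC, STAR 2.7.3a, HTSeq 0.12.4 and the build mm10, and the annotation release is not given in the sources used here. Lines that name no gene held 3.17 to 5.07% of reads outside genes, 5.84 to 6.51% ambiguous and 3.88 to 4.77% not uniquely aligned, and were left out.

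Of 53801 identifiers, 53706 were found in GENCODE M21 (GRCm38), which gave symbols, positions and exon lengths. Differences between the groups were tested on the counts in edgeR 4.0.16 under R 4.3.3 (TMM, filterByExpr defaults, robust quasi-likelihood F test, Benjamini-Hochberg adjustment over 14531 genes), since the paper names thresholds but no tool for the sequencing. Calls needed an adjusted p below 0.05 together with an absolute log2 fold change above 0.05. The SE is the log2 fold change divided by the root of F. CPM uses TMM-scaled library sizes, and CPM per kilobase divides it by merged exon length. Errors are SD over 3 libraries. The study calls the libraries biological replicates, and the labels describe independent RNA samples without naming separate cultures or infections, so p-values measure the spread between these samples, which may be technical. Replicates differed by more than sampling noise (chi-square per degree of freedom 3.38 to 9.15). The test was checked on simulated data in which only a small part of the genes changed, whereas 75.1% of genes were called here. That check therefore does not cover normalization when most genes change.

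The genes, lists and rules were chosen with earlier results of these data known. Tested genes are all named, with values in every library for those past 2-fold, those not called and the highest of each family. Members of other lists are named at the ends of their range, and some further ones were named after their values were seen. Alternatives were other normalizations and filters, DESeq2 1.42.0, limma-voom (limma 3.58.1), the replicate number as a block and leaving out each library. Protein identity within families was not analysed here. Of the transcript windows of 50 bases, at most 3.61% of any of the 42 genes occurred in another gene. The longest stretch of the Hdac4-shRNA3 sequence found in a transcript of the 42 genes was 11 bases. Figures were drawn with matplotlib 3.10.9.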

Additional observations from a re-analysis of the deposited data

Results flagged for a closer look

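Reads outside annotated genes, which no comparison above uses, were 4.64 to 5.07% of all reads (ambiguous and not uniquely aligned ones included) in the Hdac4-knockdown libraries. In the Control libraries they were 3.17 to 3.41%. Every Hdac4-knockdown library lay above the Control libraries. The tables do not give the positions of these reads, so whether any of them lie in or near the calcium genes cannot be told.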

How the results depend on the processing

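Of 378 values for the 27 tested genes under the alternatives, 363 kept their direction and their side of the threshold, 7 newly passed it, 1 no longer did and 7 changed sign. The counts of called genes moved by over 1.5 times only where low counts were let in. Without a filter 13 of the calcium genes were higher, 8 of them past 2-fold, and DESeq2 gave 5 higher past 2-fold, against 8 and 3. Over all genes, 6220 of 28015 tested were higher without a filter and 5591 of 28015 with DESeq2, against 5521 of 14531. All genes past 2-fold were not counted under the alternatives. Lower calls were 12 with upper quartile normalization and 13 otherwise. Over all genes they ranged from 4600 with upper quartile normalization to 5778 without a filter. The sign changes were in genes that were not called, namely Camk2a (0 to 0.18 over the libraries left out, lowest without Control replicate 3), Itpr2 (-0.02 to 0.1, with -0.01 and -0.02 without Control or Hdac4-knockdown replicate 1) and Orai1 (0.01 with library size alone, 0.04 with upper quartile normalization, and -0.17 to 0.05 over the libraries left out, with 0.01 and 0.05 without Control replicate 2 or Hdac4-knockdown replicate 1). Leaving out each library in turn gave 8 to 9 higher and 13 lower genes, 3 to 4 and 4 to 6 past 2-fold, and -0.46 to -0.42 for Hdac4. Over all genes these fits gave 5372 to 5529 higher and 5163 to 5400 lower. Upper quartile normalization shifted the median of all genes to 0.103 from 0.0144. A block for replicate number gave 9 higher and 13 lower genes (5564 and 5472 over all genes), Orai3 being added. Same-numbered libraries of the groups share only a number (correlation of deviations -0.0111 to 0.027). Depth limits the genes with the fewest counts, and Atp2a3, Cacna1b and Cacna1s have the widest errors of those tested.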
